A study of Mus musculus with 7 samples.

Results

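Hippocampi of mice treated with the immunoproteasome inhibitor ONX-0914 were compared with hippocampi of mice treated with its vehicle, DMSO. The comparison rests on 4 of the 7 RNA-seq libraries of the study, the 2 labelled CN+ONX0914 (replicates 1 and 2) and the 2 labelled CN+DMSO (replicates 2 and 3), chosen by their labels and not by their values. All animals were male mice of the outbred CD1 stock, and the labels call them age-matched without giving an age. For 2 months the inhibitor group had 2 intraperitoneal injections a week with 10 mg/kg ONX-0914, and the vehicle group received equal volumes of DMSO at the same times. The 3 control libraries, labelled CN, came from mice that received no treatment, and their values are given beside the results. The study's methods name more mice per group than there are libraries and do not say whether a library holds RNA of a single mouse, so the p-values measure the spread between these libraries. Each library has a count for 55416 Ensembl genes, of which 13152 had enough counts to be tested.

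In the standard form of the proteasome, which breaks down proteins tagged for removal, the proteolytic sites sit on the products of Psmb5, Psmb6 and Psmb7. In the immunoproteasome they are replaced by the products of Psmb8, Psmb9 and Psmb10, which interferon induces and which are abundant in immune cells. ONX-0914 acts mainly on the subunit encoded by Psmb8. In the hippocampus, glutamate released onto pyramidal neurons opens AMPA and NMDA receptors, and strong activity leads to long-term potentiation (LTP) of these synapses. The same activity switches on immediate early genes such as Fos and Arc within minutes. The comparison with DMSO asks what the inhibitor changed beyond the vehicle and the injections.

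The libraries held 2842675 and 3877006 counts on genes in the DMSO group and 3854624 and 13782270 counts in ONX-0914 replicates 1 and 2. Expression is given as CPM, which is the count of a gene scaled to a common library total with TMM factors, and 3 counts corresponded to 0.802 and 1.07 CPM in the DMSO libraries and to 0.751 and 0.197 CPM in the ONX-0914 libraries. These floors cover counting error only. Markers of the hippocampal fields CA1, CA3 and dentate gyrus were detected in all libraries. However, the ONX-0914 libraries stood apart from the others and from each other. Replicate 1 had more RNA of striatal and thalamic genes, and replicate 2 more of hemoglobin and mitochondrially encoded genes (values below). In bulk tissue, fewer cells of a type and less RNA per cell cannot be told apart. Between the 2 ONX-0914 libraries, 25.2% of the tested genes differed more than 2-fold, against 4.14% between the DMSO libraries. The root-mean-square distance of the 500 most different genes was 2.49 to 2.81 on the log2 scale between ONX-0914 and DMSO libraries, 2.91 between the ONX-0914 libraries and 1.57 between the DMSO libraries. Therefore, genes are given per library, in the order of replicates 2 and 3 for DMSO and of replicates 1 and 2 for ONX-0914.

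Of the 13152 genes tested, 6 were differentially expressed genes (DEG, FDR under 0.05 with edgeR's quasi-likelihood test and Benjamini–Hochberg adjustment), which is 0.0456% of the genes. The single gene that rose was Dpp10 (0.0076% of the genes tested), and Gm26644, 3300002P13Rik, Arc, Igfbp4 and Sstr3 fell (0.038%). For all 6, the ONX-0914 libraries lay outside the range of the DMSO and of the control libraries. At an FDR under 0.2, 188 genes were higher (1.43%) and 197 lower (1.5%) with ONX-0914. In the same model, 15 genes differed between ONX-0914 and control (0.114%) and 2 between DMSO and control (0.0152%). An unadjusted p-value under 0.05 was obtained for 1937 genes (14.7%), 1063 with higher and 874 with lower expression under ONX-0914. Over all tested genes, both ONX-0914 libraries lay above both DMSO libraries for 2722 genes (20.7%) and below them for 2615 genes (19.9%), and for 3742 and 1728 genes with total counts alone. They lay above all 5 libraries without ONX-0914 for 1484 genes (11.3%) and below all 5 for 1505 genes (11.4%). The median Log2FC of the tested genes was 0.05, and it was 0.18 when libraries were scaled to total counts alone. The number of DEG depended on the libraries in the model. No call was left when control replicate 1, 2 or 3 was taken out (unadjusted p under 0.05 in 1446, 1415 and 1439 genes) or DMSO replicate 3 (960 genes). Gm26644 and 3300002P13Rik remained without DMSO replicate 2. With DESeq2, 245 genes were called, 98 higher and 147 lower, and all 6 DEG were among them. Arc, Igfbp4 and Sstr3 missed the threshold with total counts alone (FDR = 0.0564, edgeR), and no gene was called when the 4 compared libraries were fitted alone.

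Gm26644 and 3300002P13Rik, both annotated as long intergenic noncoding RNAs, had the smallest p-values. Gm26644 (ENSMUSG00000097683) was at 34.2 and 45.1 CPM in DMSO replicates 2 and 3, at 2.75 and 3.22 CPM in ONX-0914 replicates 1 and 2 and at 24.9, 27.7 and 29.1 CPM in the control libraries. It was thus 12.8-fold lower with ONX-0914, with a Log2FC of −3.68 ± 0.267 (SE) at an edgeR FDR of 0.00759. The role of this RNA is not established. 3300002P13Rik (ENSMUSG00000107585) was at 198 and 289.7 CPM in DMSO, 40.5 and 44.8 CPM under ONX-0914 and 238, 239 and 257 CPM in control. Its Log2FC of −2.51 ± 0.227 (SE) at an edgeR FDR of 0.0215 corresponds to a 5.69-fold decrease, and the ONX-0914 libraries differed from each other by less than the DMSO libraries did. In the RefSeq annotation of GRCm38.p6, 3300002P13Rik lies between Cacng8 and Cacng6, which encode auxiliary subunits of the AMPA receptor and calcium channel family. Cacng8 was at 143 and 111 CPM in DMSO and 45.3 and 90.7 CPM under ONX-0914 (Log2FC −0.89, edgeR FDR 0.267), without passing the threshold.

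Igfbp4 (ENSMUSG00000017493) encodes a secreted protein that binds insulin-like growth factors. Its level was 232 and 217 CPM in the DMSO libraries and 54.3 and 62.1 CPM in the ONX-0914 libraries, while control libraries held 182, 221 and 261 CPM. The groups did not overlap, and the Log2FC of −1.94 ± 0.218 (SE) at an edgeR FDR of 0.0371 corresponds to a 3.84-fold decrease. Sstr3 (ENSMUSG00000044933), a somatostatin receptor found on neuronal cilia, fell from 55.6 ± 4.2 CPM (SD, n = 2) in DMSO to 18 ± 0.374 CPM (SD, n = 2) with ONX-0914. Per library, Sstr3 was at 58.5 and 52.6 CPM in DMSO, 18.3 and 17.7 CPM under ONX-0914 and 58.7, 59.5 and 59.7 CPM in control, so the spread within each group was small beside the difference. The decrease was 3.08-fold, with a Log2FC of −1.63 ± 0.183 (SE) at an edgeR FDR of 0.0371. Dpp10 (ENSMUSG00000036815), which encodes an auxiliary subunit of Kv4 potassium channels, was the only DEG with higher expression. It was at 32.1 and 26.3 CPM in DMSO, 100.1 and 98.6 CPM in ONX-0914 replicates 1 and 2 and 29.3, 32.1 and 34.1 CPM in control. This 3.4-fold increase had a Log2FC of 1.76 ± 0.196 (SE) at an edgeR FDR of 0.0371.

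Arc (ENSMUSG00000022602), an immediate early gene whose product removes AMPA receptors from synapses, fell 7.8-fold. It was at 446 and 343 CPM in DMSO replicates 2 and 3 and at 34.3 and 65.6 CPM in ONX-0914 replicates 1 and 2, a Log2FC of −2.96 ± 0.318 (SE) at an edgeR FDR of 0.0371. Control libraries held 88.5, 94.9 and 106 CPM, between both treated groups. In the same model, its Log2FC was 2.03 between DMSO and control (FDR = 0.187, edgeR) and −0.93 between ONX-0914 and control (FDR = 0.162, edgeR), and neither was called. For the other 5 DEG, the Log2FC between DMSO and control was −0.092 for Sstr3, −0.12 for Dpp10, −0.0050 for 3300002P13Rik, 0.021 for Igfbp4 and 0.54 for Gm26644. Among the 6 DEG, both DMSO libraries lay above all control libraries for Arc and Gm26644 alone. The comparisons share the DMSO libraries and are not independent of each other.

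**Figure D1:**
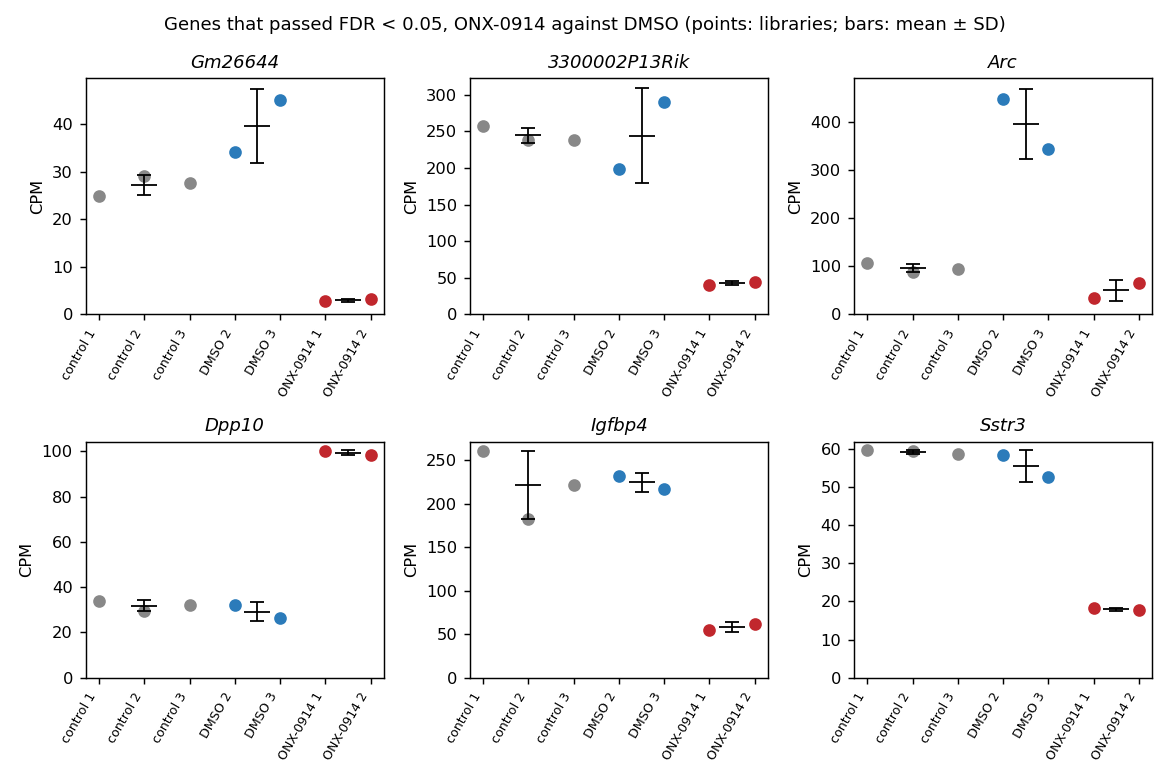
Expression of the 6 DEG in CPM (y axis, linear, from 0) in each of the 7 libraries (x axis), with control in grey, DMSO in blue and ONX-0914 in red, and black bars for the mean ± SD of each group. Both ONX-0914 libraries sit outside all other libraries in each panel, and in the Arc panel the DMSO libraries, at 343 and 446 CPM, also stand above the control libraries.

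The protein-coding genes next in order were picked among those with both ONX-0914 libraries on the same side of the DMSO libraries. They did not pass the FDR of 0.05 with edgeR. With DESeq2, Mapk6, Kitl, Cux2, Nova1, Krt2, St6galnac5, Hspa2 and Slc44a5 had an FDR under 0.05. DESeq2 gave no FDR for Ankrd34c, Exph5 and Rasgef1c. With higher expression under ONX-0914, Mapk6, which encodes the atypical MAP kinase ERK3, was at 17.4 and 13.9 CPM in DMSO and 49.3 and 59 CPM with ONX-0914, a Log2FC of 1.79 ± 0.22 (SE) at an edgeR FDR of 0.0525. Kitl, the ligand of the receptor tyrosine kinase Kit, was at 14.7 and 11.4 CPM in DMSO, at 85.1 and 42.5 CPM in ONX-0914 replicates 1 and 2 and at 7.46 to 8.15 CPM in control (Log2FC 2.27, edgeR FDR 0.082). Leaving out replicate 2 gave a Log2FC of 2.68, and leaving out replicate 1 gave 1.68. Cux2, a homeobox gene of upper-layer cortical neurons, was at 25.4 and 22 CPM in DMSO against 61.1 and 69.5 CPM with ONX-0914 (Log2FC 1.46, edgeR FDR 0.082). Nova1, which encodes a neuronal splicing regulator, was at 26.7 and 24.2 CPM in DMSO and 56.8 and 69.1 CPM under ONX-0914 (Log2FC 1.31, edgeR FDR 0.0885). The other 3 named genes had low counts. Ankrd34c was at 1.6 and 0.711 CPM in DMSO against 11.8 and 11.7 CPM with ONX-0914, Exph5, which encodes a Rab27 effector, at 1.07 and 0.355 CPM in DMSO against 6.51 and 8.48 CPM with ONX-0914, and Rasgef1c at 1.07 and 0.711 CPM in DMSO against 7.26 and 9.79 CPM with ONX-0914. Their FDR values were 0.0885, 0.0887 and 0.0976 (edgeR).

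Among the genes with lower expression, Krt2, a keratin gene, was at 16.6 and 22.7 CPM in DMSO, 2.5 and 1.71 CPM with ONX-0914 and 14.7 to 26.3 CPM in control, a Log2FC of −3.30 ± 0.411 (SE) at an edgeR FDR of 0.0525. St6galnac5 encodes a sialyltransferase of gangliosides and was at 332 and 341 CPM in DMSO and 105 and 127 CPM with ONX-0914 (Log2FC −1.53, edgeR FDR 0.0525). Hspa2, a member of the Hsp70 chaperone family, was at 162 and 133 CPM in DMSO against 54.8 and 43 CPM with ONX-0914 (Log2FC −1.60, edgeR FDR 0.0525). Slc44a5, a gene of the choline transporter-like family, was at 35 and 42.3 CPM in DMSO against 12.3 and 12.6 CPM with ONX-0914 (Log2FC −1.63, edgeR FDR 0.0668). In all 4, the ONX-0914 libraries were below the 3 control libraries as well. Of all genes, 11.4% lay below all 5 libraries without ONX-0914. With RLE size factors in place of TMM, Krt2, St6galnac5, Hspa2 and Mapk6 were called, and 11 genes in all.

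**Figure D2:**
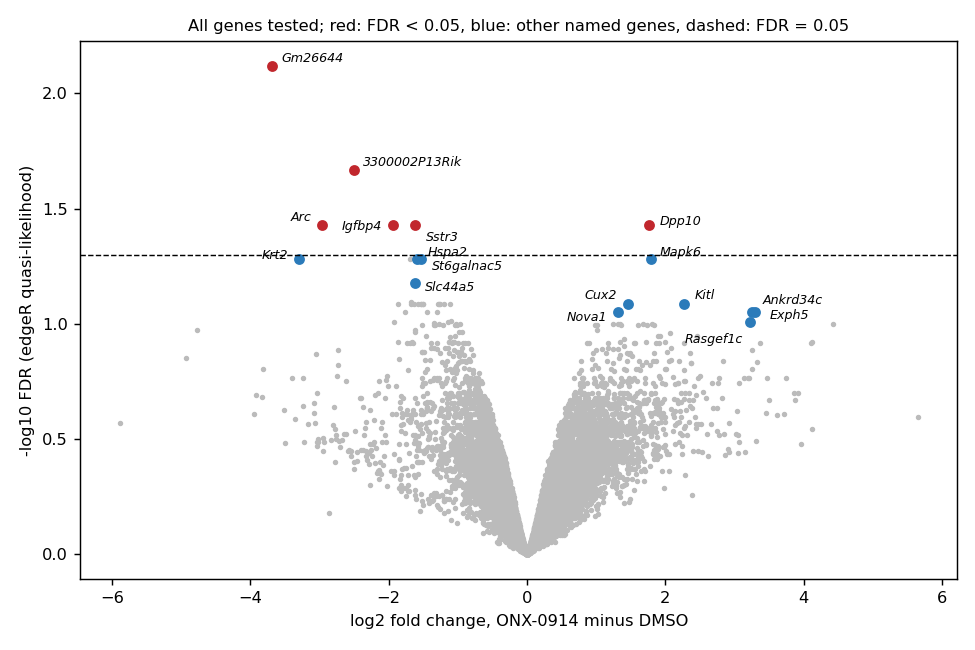
Log2FC between ONX-0914 and DMSO (x axis) against the negative log10 of the FDR (y axis) for all 13152 tested genes, with DEG in red, the other genes described above in blue and the dashed line at an FDR of 0.05. The 6 DEG lie above the line, 5 of them to the left.

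The immediate early genes, which neurons transcribe within minutes of activity, had the lowest median Log2FC of the 33 lists examined. All 17 genes of the list were tested, and 16 had a negative Log2FC with a median of −1.03, against 0.05 over all genes. With total counts alone, Bdnf and Egr3 changed sign. Arc alone was called with edgeR. DESeq2 values were taken for only some genes of the list, and not for Fosb. Among those taken, Fos, Jun and Nr4a3 had an FDR under 0.05 as well. In 13 of the 17, both inhibitor libraries were lower than both DMSO libraries (19.9% of all genes), and in none were both higher (20.7% of all genes), and 11 of the 17 had an unadjusted p under 0.05 with lower expression (6.65% of all genes). The medians of the separate libraries were −1.80 in ONX-0914 replicate 1 and −0.60 in replicate 2. Summed over the list, expression was 1344 and 1141 CPM in DMSO, 291 and 714 CPM in ONX-0914 replicates 1 and 2 and 568 to 645 CPM in control. Hence, the sum in replicate 1 was below and that in replicate 2 above all control libraries, and both DMSO libraries were higher than either. Between DMSO and control, all 17 genes had a positive Log2FC with a median of 0.92, and between ONX-0914 and control the median was 0.066.

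Fos and Jun encode subunits of the transcription factor AP-1. Fos was at 21.9 and 23.1 CPM in DMSO, 9.01 and 6.96 CPM with ONX-0914 and 6.31, 7.46 and 7.6 CPM in control, a Log2FC of −1.52 ± 0.264 (SE) at an edgeR FDR of 0.101. The ONX-0914 libraries were therefore near the control level, below DMSO. Jun was at 118 and 109 CPM in DMSO, 59.1 and 56.7 CPM with ONX-0914 and 68.7, 72.1 and 72.4 CPM in control, a Log2FC of −0.98 ± 0.167 (SE) at an edgeR FDR of 0.10. Fosb, another AP-1 gene, was at 27.8 and 26.7 CPM in DMSO against 8.01 and 9.46 CPM with ONX-0914 (Log2FC −1.62, edgeR FDR 0.108), and the nuclear receptor gene Nr4a3 at 142 and 126 CPM in DMSO against 14.3 and 55.5 CPM with ONX-0914 (Log2FC −1.90, edgeR FDR 0.185). These 2 genes were picked after their values were seen, as was Npas4, the only gene of the list with a positive Log2FC. Npas4, a neuronal activity-dependent transcription factor, was at 4.54 and 5.33 CPM in DMSO, but at 1.75 and 17.2 CPM in ONX-0914 replicates 1 and 2 (Log2FC 1.10, edgeR FDR 0.514). Its high level was thus found in replicate 2 alone. Egr3, a zinc finger transcription factor, and Bdnf, a neurotrophin gene, also split the ONX-0914 libraries. Both were likewise picked after their values were seen. Egr3 was at 112 and 106 CPM in DMSO against 28.3 and 166 CPM with ONX-0914, and Bdnf at 37.7 and 30.9 CPM in DMSO against 9.51 and 56 CPM with ONX-0914.

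Many immediate early genes are switched on through the factor CREB, which binds the cAMP response element. The 250 bases before the RefSeq start (GRCm38.p6) are shown for the genes of the list with an FDR under 0.2 that have an entry, with the half-site TGACG on either strand and TATAA on the given strand in capitals. The windows are chr12:85473640-85473889 (plus strand) for Fos, chr7:19310046-19310295 (minus strand) for Fosb, chr4:95052223-95052472 (minus strand) for Jun and chr4:48045055-48045304 (plus strand) for Nr4a3, each printed 5′ to 3′ along the gene.
Fos: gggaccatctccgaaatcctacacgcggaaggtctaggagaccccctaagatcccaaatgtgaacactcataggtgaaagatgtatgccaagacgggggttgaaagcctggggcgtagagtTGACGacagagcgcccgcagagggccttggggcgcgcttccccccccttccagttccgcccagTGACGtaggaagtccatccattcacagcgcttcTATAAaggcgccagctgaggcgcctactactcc
Fosb: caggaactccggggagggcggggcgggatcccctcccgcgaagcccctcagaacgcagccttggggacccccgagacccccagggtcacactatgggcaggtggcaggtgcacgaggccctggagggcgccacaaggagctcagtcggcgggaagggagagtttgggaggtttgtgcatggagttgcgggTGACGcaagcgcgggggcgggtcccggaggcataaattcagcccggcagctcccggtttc
Jun: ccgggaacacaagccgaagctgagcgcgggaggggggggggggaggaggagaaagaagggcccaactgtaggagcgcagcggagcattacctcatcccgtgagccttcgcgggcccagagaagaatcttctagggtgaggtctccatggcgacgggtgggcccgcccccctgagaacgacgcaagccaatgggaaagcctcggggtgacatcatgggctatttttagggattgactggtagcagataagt
Nr4a3: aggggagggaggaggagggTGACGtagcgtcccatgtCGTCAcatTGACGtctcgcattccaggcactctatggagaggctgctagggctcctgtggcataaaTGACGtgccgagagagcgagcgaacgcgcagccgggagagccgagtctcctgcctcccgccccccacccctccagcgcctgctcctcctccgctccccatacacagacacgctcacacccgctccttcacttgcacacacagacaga
Fos and Nr4a3 hold several half-sites, Fosb holds 1 and Jun has no match to these letters. Of the 17 genes of the list, 13 had an entry, and 12 of these held TGACG before at least 1 of their starts, against 19.8% of all 27018 genes with an entry. The whole element TGACGTCA was found in 2 of the 13 genes (1.77% of all genes) and TATAA in 4 (18.4%). Some genes have several starts, which adds windows. A match describes the sequence, and binding was not measured.

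**Figure D3:**
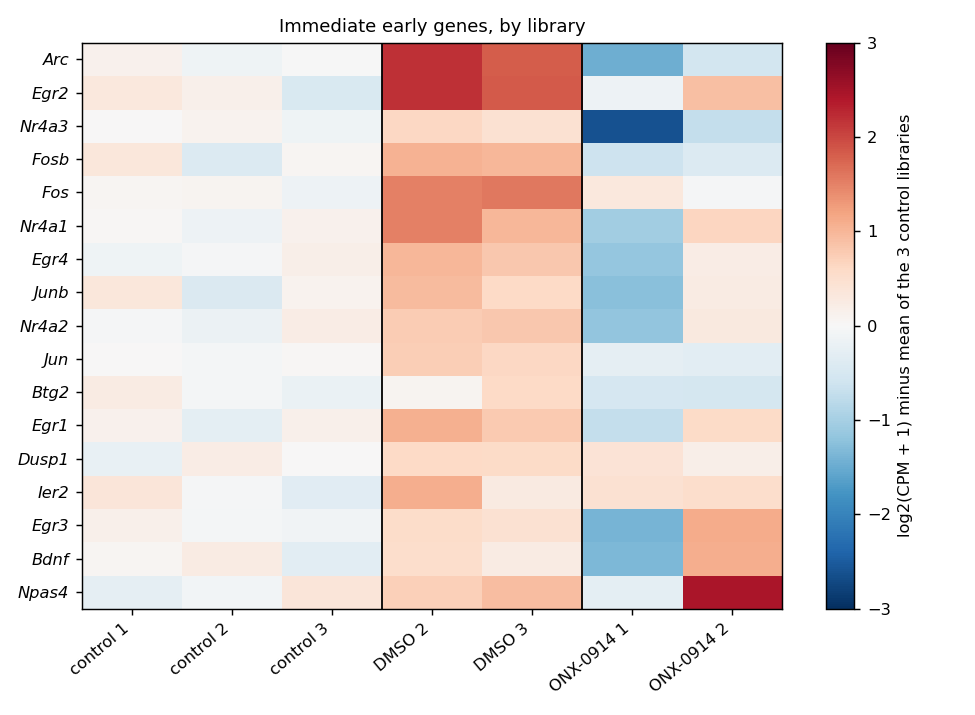
Immediate early genes (rows, ordered by their Log2FC between ONX-0914 and DMSO) in the 7 libraries (columns), coloured by log2(CPM + 1) minus the mean of the 3 control libraries. The 2 DMSO columns are red in nearly all rows, ONX-0914 replicate 1 is mostly blue, and replicate 2 is mixed, with Npas4 as its highest gene.

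Chaperone and stress genes are known to respond when proteasomes are inhibited. Of the 18 tested genes of this list, none was called with edgeR. With DESeq2, taken only for the genes named below, Hspa5 had an FDR of 0.04. Of the 18, 13 had a negative and 5 a positive Log2FC, and the median was −0.57. Both ONX-0914 libraries lay below the DMSO libraries for 10 genes (19.9% of all genes) and above them for 2 (20.7%). In Hspa1b, which encodes an inducible Hsp70, expression was 25.9 and 13.9 CPM in DMSO, 5.26 and 8.15 CPM with ONX-0914 and 6.25 to 7.81 CPM in control (Log2FC −1.52, edgeR FDR 0.171). Hspa5, the endoplasmic reticulum chaperone BiP, was at 743 and 635 CPM in DMSO, 436 and 260.0 CPM in ONX-0914 and 325 to 374 CPM in control (Log2FC −0.98, edgeR FDR 0.199). Chac1, a target of the integrated stress response, lay in the other direction at 0.535 and 1.42 CPM in DMSO against 2.75 and 5.39 CPM with ONX-0914 (Log2FC 2.22, edgeR FDR 0.218). As for the immediate early genes, DMSO libraries were the higher ones for most of the list, since 17 of 18 genes had a positive Log2FC between DMSO and control, with a median of 0.41. Between ONX-0914 and control the median was 0.021.

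Glutamate receptor and transporter genes differed in both directions, and none was called with edgeR. Among the genes named here, the FDR with DESeq2 was under 0.05 for Gria1, Gria2 and Grik4, and for Grm4 and Slc17a6 of the next paragraph. Gria1, the GluA1 subunit of AMPA receptors, was at 1581 and 1374 CPM in DMSO and 493 and 663 CPM with ONX-0914, with 1677 to 1843 CPM in control, a Log2FC of −1.35 ± 0.24 (SE) at an edgeR FDR of 0.101. Gria2, which encodes GluA2, was at 937 and 908 CPM in DMSO against 358 and 534 CPM with ONX-0914 (Log2FC −1.04, edgeR FDR 0.156), and Grik4, a kainate receptor subunit, at 66.6 and 71.4 CPM in DMSO against 18.3 and 33.5 CPM with ONX-0914 (Log2FC −1.38, edgeR FDR 0.127). For these 3 genes, which had the smallest p of their list, both ONX-0914 libraries were below all others (11.4% of all genes). The list of 9 AMPA and kainate subunits had 6 negative and 3 positive values, with medians of −0.57 in ONX-0914 replicate 1 and −0.017 in replicate 2. Both ONX-0914 libraries lay below DMSO for 4 of the 9 (19.9% of all genes) and above for 2 (20.7%). At an edgeR FDR under 0.2, 3 were lower (1.5% of all genes) and 2 higher (1.43%). Among the 6 tested NMDA subunits, Grin2b was at 574 and 516 CPM in DMSO and 313 and 347 CPM with ONX-0914 (Log2FC −0.72, edgeR FDR 0.199). Grin3a was at 17.4 and 14.9 CPM in DMSO against 37.3 and 26.9 CPM with ONX-0914 (Log2FC 0.98, edgeR FDR 0.18). Grin2d was at 5.61 and 5.33 CPM in DMSO against 22.5 and 8.67 CPM with ONX-0914 (Log2FC 1.44, edgeR FDR 0.278). Both were above DMSO in both ONX-0914 libraries (20.7% of all genes).

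The metabotropic receptors had 6 positive values among 7 tested genes, but 4 overlapped DMSO. Both ONX-0914 libraries lay above DMSO for 2 (20.7% of all genes) and below for 1 (19.9%). Grm4, a presynaptic group III receptor, was at 7.75 and 6.75 CPM in DMSO and 39.5 and 16.6 CPM in ONX-0914 replicates 1 and 2 (Log2FC 1.91, edgeR FDR 0.168), and its Log2FC was 1.17 without replicate 1 and 2.43 without replicate 2. Grm8, of the same group, was at 4.28 and 3.55 CPM in DMSO against 14.3 and 8.54 CPM with ONX-0914 (Log2FC 1.48, edgeR FDR 0.186), while Grm5, a postsynaptic receptor, was at 239 and 243 CPM in DMSO against 149 and 191 CPM with ONX-0914 (Log2FC −0.50, edgeR FDR 0.291). Of the vesicular glutamate transporters, Slc17a8 (VGLUT3) was at 6.15 and 6.4 CPM in DMSO and 2.25 and 2.23 CPM with ONX-0914 (Log2FC −1.47, edgeR FDR 0.18). For Slc17a8, the libraries within each group were nearly equal. Slc17a6 (VGLUT2), which is typical of thalamic neurons, was at 25.7 and 17.8 CPM in DMSO against 176 and 39.7 CPM with ONX-0914 in replicates 1 and 2 (Log2FC 2.29, edgeR FDR 0.199), so most of its difference lay in replicate 1. Its Log2FC was 0.84 without that library. Gls2, a glutaminase gene, was at 9.62 and 10.7 CPM in DMSO against 17.8 and 22.9 CPM with ONX-0914 (Log2FC 1.02, edgeR FDR 0.209). The list of transporters and enzymes had 5 positive and 6 negative values among 11, and their median of −0.11 was 0.027 with total-count scaling.

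Genes of LTP signalling were split, with 16 positive and 15 negative Log2FC values among 31 tested and a median of 0.012. Both ONX-0914 libraries lay below the DMSO libraries for 13 of the 31 (19.9% of all genes) and above them for 6 (20.7%). Map2k1, the kinase MEK1 of the ERK cascade, was at 688 and 703 CPM in DMSO and 366 and 248 CPM with ONX-0914 (Log2FC −1.18, edgeR FDR 0.127). Camk2d, a calcium/calmodulin-dependent kinase gene, was at 26.5 and 19.2 CPM in DMSO against 101 and 67.3 CPM with ONX-0914 (Log2FC 1.87, edgeR FDR 0.121). Plcb4, a phospholipase C gene that is abundant in thalamus, was at 13.9 and 10.3 CPM in DMSO and 111 and 27.3 CPM in replicates 1 and 2 (Log2FC 2.48, edgeR FDR 0.171). For Camk2d and Plcb4, replicate 1 was the higher of the inhibitor libraries. Htr1a, the serotonin 1A receptor, was at 54.8 and 50.5 CPM in DMSO against 16.8 and 24.6 CPM with ONX-0914 (Log2FC −1.33, edgeR FDR 0.101). Chrna2, a nicotinic receptor subunit, had 15 and 14 counts in DMSO and 1 and 12 counts with ONX-0914, or 4.01 and 4.98 CPM in DMSO against 0.25 and 0.788 CPM with ONX-0914 (Log2FC −2.73, edgeR FDR 0.13). For Map2k1, Htr1a and Chrna2, both ONX-0914 libraries were also below all control libraries. Of all genes, 11.4% lay below all 5 libraries without ONX-0914. DESeq2 gave an FDR under 0.05 for Map2k1, Camk2d, Plcb4 and Htr1a, and none for Chrna2.

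Of the 21 genes of synaptic vesicle release, 6 lay below the DMSO libraries in both ONX-0914 libraries (19.9% of all genes) and 2 above them (20.7%), and the median was −0.052 (0.080 with total-count scaling). Cplx2, which encodes a complexin that clamps vesicle fusion, was at 2465 and 2586 CPM in DMSO and 1218 and 1280.0 CPM with ONX-0914 (Log2FC −1.01, edgeR FDR 0.158). Unc13c, a vesicle priming gene, was at 23.3 and 16 CPM in DMSO against 148 and 33.5 CPM with ONX-0914 (Log2FC 2.18, edgeR FDR 0.22), and the synapsin gene Syn3 at 1.87 and 1.78 CPM in DMSO against 2.75 and 11.8 CPM with ONX-0914 (Log2FC 2.12, edgeR FDR 0.253), so most of the difference lay in replicate 1 for Unc13c and in replicate 2 for Syn3. DESeq2 gave an FDR under 0.05 for Cplx2 and Unc13c, and none for Syn3. Among the 26 postsynaptic scaffold and adhesion genes, which had 15 positive and 11 negative values, the smallest p-value was that of Dlg3. Dlg3, a scaffold of NMDA receptors, was at 315 and 312 CPM in DMSO and 212 and 207 CPM with ONX-0914 (Log2FC −0.58, edgeR FDR 0.222), and Nlgn3, a neuroligin gene, at 66.3 and 76.8 CPM in DMSO against 53.3 and 33 CPM with ONX-0914 (Log2FC −0.74, edgeR FDR 0.268). The GABA receptor list had 11 positive values among 14, and 5 genes had an unadjusted p under 0.05 with higher expression (8.08% of all genes). Gabrd, the delta subunit of extrasynaptic receptors, was at 19.5 and 17.8 CPM in DMSO and 39.3 and 38.2 CPM with ONX-0914 (Log2FC 1.05, edgeR FDR 0.168). Gabra3 was at 61.5 and 50.8 CPM in DMSO against 149.9 and 81.2 CPM with ONX-0914 (Log2FC 1.03, edgeR FDR 0.219), and Gabra4 at 96.2 and 77.8 CPM in DMSO against 131 and 133 CPM with ONX-0914 (Log2FC 0.60, edgeR FDR 0.232).

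The genes of the inhibitor's targets did not separate the groups. Psmb8 was at 2.41 and 3.91 CPM in DMSO and 2.5 and 3.48 CPM with ONX-0914, with a Log2FC of 0.025 ± 0.547 (SE) at an edgeR FDR of 0.987. Psmb9 was at 3.21 and 4.27 CPM in DMSO against 4.0 and 2.23 CPM with ONX-0914 (Log2FC −0.37, edgeR FDR 0.70) and Psmb10 at 27.8 and 33.4 CPM in DMSO against 30.3 and 27.3 CPM with ONX-0914 (Log2FC −0.088, edgeR FDR 0.861). Psme1 and Psme2 encode subunits of the interferon-induced proteasome activator and were at 42.2 and 48.7 CPM in DMSO against 50.3 and 24.6 CPM with ONX-0914 and at 23.3 and 34.5 CPM in DMSO against 33.5 and 18 CPM with ONX-0914, respectively. For all 5 genes, the ranges of the groups overlapped, as they did for most tested genes. Both ONX-0914 libraries lay above DMSO for 20.7% of all genes and below for 19.9%. Psmb8 and Psmb9 had 9 to 12 counts in the DMSO libraries, so small differences were not detectable at this depth. Psmb5, which encodes the constitutive counterpart of the Psmb8 product, was lower in both ONX-0914 libraries at 30.5 and 23.8 CPM against 52.1 and 56.2 CPM in DMSO and 46.4 to 54.8 CPM in control (Log2FC −1.0, edgeR FDR 0.132). Psma4 was at 98.6 and 107 CPM in DMSO against 81.3 and 48.7 CPM with ONX-0914 (Log2FC −0.67, edgeR FDR 0.297) and Psmb6 at 152 and 155 CPM in DMSO against 129 and 79.4 CPM with ONX-0914 (Log2FC −0.56, edgeR FDR 0.331). Of the 14 core genes, 6 lay below DMSO in both ONX-0914 libraries (19.9% of all genes) and 1 above (20.7%). None was called with edgeR. With DESeq2, taken only for the core genes named here, Psmb5 had an FDR of 0.0325. The core list had 9 negative and 5 positive Log2FC values, with medians of −0.21 in ONX-0914 replicate 1 and −0.15 in replicate 2, and its group median of −0.15 was −0.019 with total-count scaling. Their summed level was 1707 and 1788 CPM in DMSO, 1589 and 935 CPM in ONX-0914 replicates 1 and 2 and 1495 to 1625 CPM in control. In the 19S cap, 14 of 18 genes had a negative Log2FC, with medians of −0.073 in ONX-0914 replicate 1 and −0.59 in replicate 2. Psmc6 was the exception with the smallest p, at 32.3 and 35.5 CPM in DMSO and 41.3 and 69.98 CPM with ONX-0914 (Log2FC 0.73, edgeR FDR 0.28), while Psmc3 was at 242 and 257 CPM in DMSO against 195 and 153 CPM with ONX-0914 (Log2FC −0.51, edgeR FDR 0.284) and Psmd14 at 85 and 105 CPM in DMSO against 77.1 and 61.4 CPM with ONX-0914. The 12 assembly and regulation genes had a median of −0.040 (0.10 with total-count scaling). Of these, the assembly chaperone genes Psmg3 and Psmg2 were at 1.34 and 0.711 CPM in DMSO against 2.75 and 4.73 CPM with ONX-0914 and at 4.54 and 5.33 CPM in DMSO against 5.26 and 15.1 CPM with ONX-0914, and Ddi2, which encodes a protease that activates the regulator of proteasome genes, at 87.4 and 103 CPM in DMSO against 74.6 and 58.9 CPM with ONX-0914.

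Antigen presentation and interferon genes act with the immunoproteasome in immune cells. They had medians of 0.34 over 11 and 0.53 over 15 tested genes, and none was called with edgeR. B2m, the light chain of MHC class I, was at 19 and 12.8 CPM in DMSO and 15.5 and 70.2 CPM in ONX-0914 replicates 1 and 2 (Log2FC 1.46, edgeR FDR 0.326), so its high level was that of replicate 2. The MHC class I list had 7 positive and 4 negative values, with both ONX-0914 libraries above DMSO for 3 genes (20.7% of all genes) and below for 2 (19.9%). Calr, the chaperone calreticulin that takes part in loading, was at 1198 and 1195 CPM in DMSO against 990.3 and 437 CPM with ONX-0914 (Log2FC −0.74, edgeR FDR 0.357). Tapbp, a component of the peptide loading complex, was at 10.4 and 14.9 CPM in DMSO against 16 and 23.7 CPM with ONX-0914 (Log2FC 0.68, edgeR FDR 0.335). Among the interferon genes, both ONX-0914 libraries lay above both DMSO libraries for 8 of 15 (20.7% of all genes) and below them for none (19.9%). Ifitm3, an antiviral membrane protein gene, was at 5.08 and 6.04 CPM in DMSO against 7.01 and 14.3 CPM with ONX-0914 (Log2FC 1.01, edgeR FDR 0.304), Irf7, an interferon regulatory factor, at 2.41 and 0 CPM in DMSO against 3.75 and 5.78 CPM with ONX-0914 (Log2FC 1.88, edgeR FDR 0.309), and Stat2 at 17.1 and 16 CPM in DMSO against 20.8 and 23.2 CPM with ONX-0914 (Log2FC 0.42, edgeR FDR 0.394). The level of Irf7 in DMSO corresponded to 9 and 0 counts. Its Log2FC was 1.04 without DMSO replicate 3 and 7.74 without DMSO replicate 2, where no DMSO count was left.

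**Figure D4:**
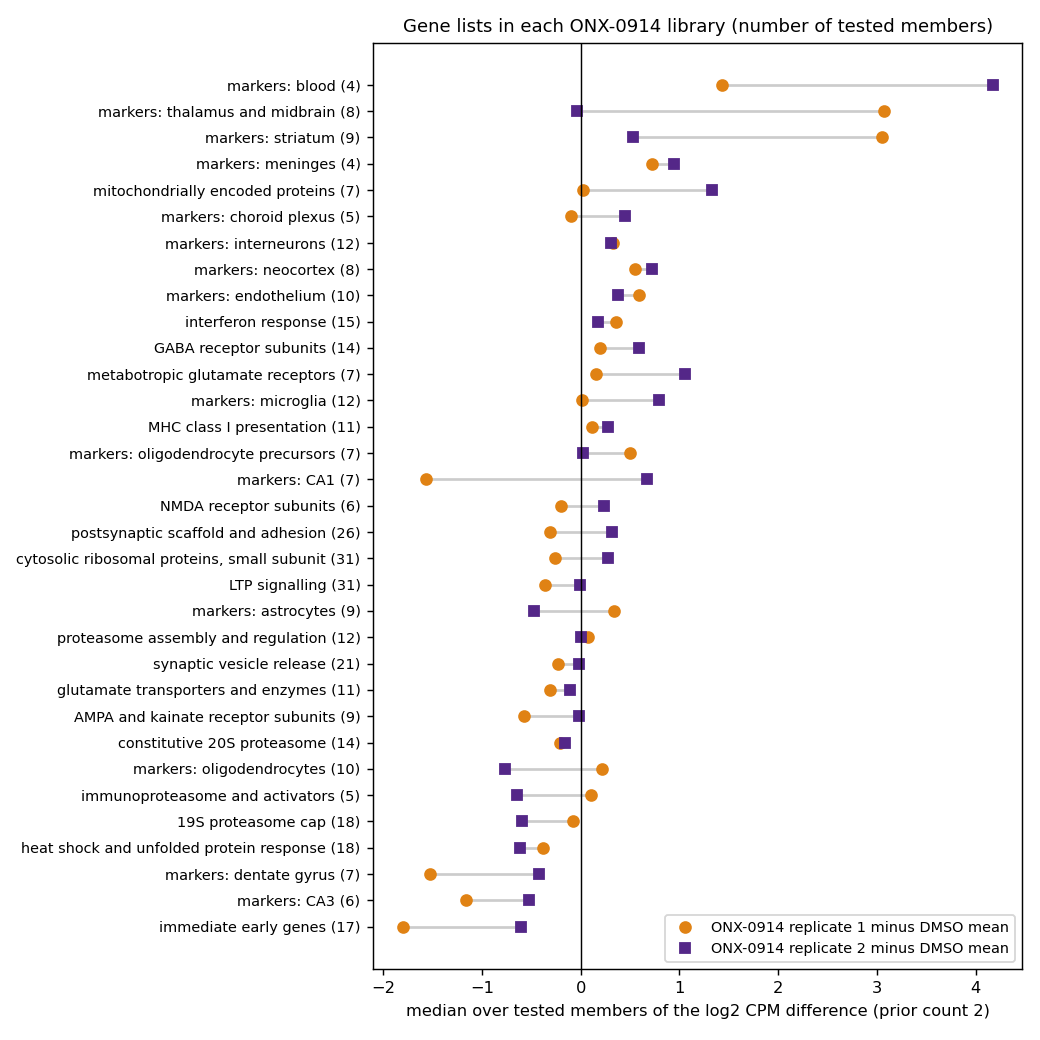
Median log2 difference in CPM from the DMSO mean (x axis) over the tested members of each of the 33 gene lists (rows, with the number of members), for ONX-0914 replicate 1 (orange circles) and replicate 2 (purple squares). Immediate early genes, CA3 and dentate gyrus markers are to the left of 0 in both libraries, while blood, striatum, thalamus, mitochondrial and CA1 lists are far apart between the 2 libraries.

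Marker genes of hippocampal fields and of other brain regions differed between the ONX-0914 libraries. The summed CA1 markers were 575 and 657 CPM in DMSO, 208 and 697 CPM in ONX-0914 replicates 1 and 2 and 576 to 647 CPM in control, so replicate 1 was below and replicate 2 above all other libraries. Of the 7 CA1 genes, 5 overlapped DMSO, 2 lay below it in both ONX-0914 libraries (19.9% of all genes) and none above (20.7%). By sign, 5 had a positive and 2 a negative Log2FC, with a median of 0.13. The negative ones were Fibcd1 and Pou3f1. Fibcd1 was at 131 and 146 CPM in DMSO against 30.03 and 68.3 CPM with ONX-0914 (Log2FC −1.47, edgeR FDR 0.161). Pou3f1 was at 152 and 181 CPM in DMSO against 20.02 and 86.5 CPM with ONX-0914 (Log2FC −1.61, edgeR FDR 0.247). CA3 markers summed to 199 and 212 CPM in DMSO, 108 and 156 CPM in ONX-0914 replicates 1 and 2 and 189.6 to 201 CPM in control, and Rnf182 was at 50.8 and 62.6 CPM in DMSO and 21.5 and 26.8 CPM with ONX-0914 (Log2FC −1.21, edgeR FDR 0.101). Coch was the exception in the CA3 list, at 2.67 and 0.355 CPM in DMSO against 22 and 13.2 CPM with ONX-0914 (Log2FC 3.37, edgeR FDR 0.121). Its Log2FC was 5.51 without DMSO replicate 2 and 2.67 without DMSO replicate 3. Dentate gyrus markers had a negative Log2FC in 7 of 7 genes and summed to 462 and 358 CPM in DMSO, 139 and 347 CPM in ONX-0914 replicates 1 and 2 and 404 to 510.1 CPM in control. Among them, Stxbp6 was at 139 and 111 CPM in DMSO against 60.8 and 83.1 CPM with ONX-0914 (Log2FC −0.79, edgeR FDR 0.218), and C1ql2, a granule cell gene, at 51.3 and 49.8 CPM in DMSO against 17.3 and 35.7 CPM with ONX-0914 (Log2FC −0.90, edgeR FDR 0.269). DESeq2 gave an FDR under 0.05 for Fibcd1, Pou3f1, Rnf182 and Coch. The part of these markers in the DEG was not tested.

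Striatal markers summed to 268 and 238 CPM in DMSO, 1418 and 212 CPM in ONX-0914 replicates 1 and 2 and 245 to 274 CPM in control, and markers of thalamus and midbrain to 154 and 119 CPM in DMSO, 1299 and 155 CPM in ONX-0914 replicates 1 and 2 and 147 to 175 CPM in control. The highest sums were thus those of ONX-0914 replicate 1. By gene, both ONX-0914 libraries lay above DMSO for 5 of 9 striatal and 3 of 8 thalamic and midbrain genes (20.7% of all genes). All 9 tested striatal and all 8 tested thalamic genes had a positive Log2FC, with medians of 3.05 in ONX-0914 replicate 1 and 0.53 in replicate 2 for striatum and 3.07 in ONX-0914 replicate 1 and −0.039 in replicate 2 for thalamus and midbrain. Of the 12 thalamic and midbrain genes, 2 (Irx2 and Pax7) had no count in either DMSO library, and 45 and 70 counts in replicate 1 against 1 and 0 in replicate 2. Penk, the enkephalin precursor of striatal neurons, was at 20.9 and 18.5 CPM in DMSO and 171 and 31.1 CPM with ONX-0914 (Log2FC 2.34, edgeR FDR 0.215), and Drd1, a dopamine receptor gene, at 6.42 and 2.13 CPM in DMSO against 19.5 and 10.7 CPM with ONX-0914 (Log2FC 1.72, edgeR FDR 0.213). Both were above DMSO in both inhibitor libraries, and higher in replicate 1. Rora, a nuclear receptor abundant in thalamus, was at 38.2 and 31.3 CPM in DMSO against 278 and 64.3 CPM with ONX-0914 (Log2FC 2.29, edgeR FDR 0.176), Plekhg1 at 12.6 and 8.18 CPM in DMSO against 80.1 and 19.97 CPM with ONX-0914, and Zic1 at 11 and 10.7 CPM in DMSO against 141 and 8.48 CPM with ONX-0914. Neocortex markers summed to 233 and 199 CPM in DMSO, 283 and 385 CPM in ONX-0914 replicates 1 and 2 and 177 to 334 CPM in control, and all 8 tested genes had a positive Log2FC, with medians of 0.55 in ONX-0914 replicate 1 and 0.72 in replicate 2. Both inhibitor libraries were thus above DMSO in this sum. By gene, this held for 3 of the 8 (20.7% of all genes), and 5 overlapped DMSO. Among them, Foxp2 was at 1.07 and 1.07 CPM in DMSO and 21.3 and 9.13 CPM with ONX-0914 (Log2FC 3.74, edgeR FDR 0.172). DESeq2 gave an FDR under 0.05 for Penk, Rora, Plekhg1 and Foxp2. The part of these regional genes in the DEG was not tested.

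All 4 tested blood genes were above DMSO in both ONX-0914 libraries (20.7% of all genes), and highest in replicate 2. The 5 genes summed to 46.2 and 34.5 CPM in DMSO, 95.9 and 832 CPM in ONX-0914 replicates 1 and 2 and 29.9 to 39.9 CPM in control. Hba-a1, an alpha-globin gene, was at 20.05 and 18.1 CPM in DMSO and 49.6 and 330.0 CPM in replicates 1 and 2 (Log2FC 3.32, edgeR FDR 0.147), the beta-globin gene Hbb-bt at 5.88 and 2.84 CPM in DMSO against 12.3 and 85.6 CPM with ONX-0914 (Log2FC 3.48, edgeR FDR 0.172), and Alas2, which makes heme in red cells, at 2.14 and 2.13 CPM in DMSO against 8.26 and 30.9 CPM with ONX-0914 (Log2FC 3.25, edgeR FDR 0.13). DESeq2 gave an FDR under 0.05 for Hba-a1, Hbb-bt and Alas2. Near-identical globin genes can share reads, so single values are uncertain. Endothelial markers lay above DMSO in both ONX-0914 libraries for 8 of 10 genes (20.7% of all genes) and below for none. Of these, Cldn5, a tight junction gene, was at 22.7 and 27 CPM in DMSO against 44.5 and 44.9 CPM with ONX-0914 (Log2FC 0.85, edgeR FDR 0.211), and Ly6c1 at 6.95 and 9.95 CPM in DMSO against 13.5 and 33.4 CPM with ONX-0914 (Log2FC 1.53, edgeR FDR 0.215). Of 13 mitochondrially encoded genes, 7 were tested, and the others held at most 1 count in any library. The summed level was highest in replicate 2, with 12381 and 12435 CPM in DMSO, 12554 and 28561 CPM in ONX-0914 replicates 1 and 2 and 7396 to 10562 CPM in control, and mt-Nd1 was at 1553 and 1528 CPM in DMSO and 1576 and 5711 CPM with ONX-0914 (Log2FC 1.24, edgeR FDR 0.327).

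Glial and interneuron genes gave no call with edgeR. Microglial markers had medians of 0.018 in ONX-0914 replicate 1 and 0.80 in replicate 2, with 8 positive and 4 negative values, 3 genes above DMSO in both ONX-0914 libraries (20.7% of all genes) and 2 below (19.9%). Tmem119, a negative member, was at 55.9 and 61.5 CPM in DMSO against 48.1 and 37 CPM with ONX-0914 (Log2FC −0.47, edgeR FDR 0.332). Astrocyte markers had medians of 0.34 in ONX-0914 replicate 1 and −0.47 in replicate 2, and their group median of −0.027 was 0.10 with total-count scaling. Fgfr3, a growth factor receptor of astrocytes, was at 56.4 and 62.6 CPM in DMSO against 92.1 and 114 CPM with ONX-0914 (Log2FC 0.80, edgeR FDR 0.171), and Gfap, the astrocytic filament gene, at 1059.7 and 1166 CPM in DMSO against 799 and 447 CPM with ONX-0914 (Log2FC −0.84, edgeR FDR 0.328). Oligodendrocyte markers had medians of 0.22 in ONX-0914 replicate 1 and −0.76 in replicate 2, with 3 positive and 7 negative Log2FC values. Olig1, a transcription factor from the separate list of oligodendrocyte precursors, was at 64.2 and 76.1 CPM in DMSO against 102 and 123 CPM with ONX-0914 (Log2FC 0.69, edgeR FDR 0.232). Interneuron markers had 10 positive values among 12, but 9 overlapped DMSO. Both ONX-0914 libraries lay above DMSO for 3 of the 12 (20.7% of all genes) and below for 0 (19.9%). Gad1 and Gad2, the enzymes of GABA synthesis, differed mostly in replicate 1, with 208 and 184 CPM in DMSO against 402 and 253 CPM with ONX-0914 for Gad1 and 102 and 84.2 CPM in DMSO against 316 and 105 CPM with ONX-0914 for Gad2, and neuropeptide Y (Npy) was at 7.48 and 8.18 CPM in DMSO against 8.01 and 44 CPM with ONX-0914.

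Further genes with the smallest p-values of their lists were not called with edgeR either. Of the microglial and astrocytic genes, C1qb, a complement gene, was at 24.6 and 26.7 CPM in DMSO against 34 and 44.1 CPM with ONX-0914, and Gja1, the connexin of astrocytes, at 386 and 396 CPM in DMSO against 376 and 170.4 CPM with ONX-0914. Of the oligodendrocyte lineage, the myelin gene Mal was at 492 and 598 CPM in DMSO against 583 and 191 CPM with ONX-0914 and Opalin at 8.55 and 6.75 CPM in DMSO against 11.5 and 15.9 CPM with ONX-0914, so replicate 2 was the lowest library for Mal and the highest for Opalin. The precursor list had 5 positive and 2 negative values, with a median of 0.22, and both ONX-0914 libraries lay above DMSO for 2 genes (20.7% of all genes) and below for 2 (19.9%). Its negative members were Gpr17 and Bmp4. Gpr17, a receptor of maturing oligodendrocyte precursors, was at 78.1 and 72.9 CPM in DMSO against 63.6 and 26.3 CPM with ONX-0914, and Bmp4 at 9.09 and 8.53 CPM in DMSO against 6.51 and 0.986 CPM with ONX-0914. Cdh5, the cadherin of endothelial junctions, was at 5.08 and 7.11 CPM in DMSO against 8.01 and 15.4 CPM with ONX-0914, with both inhibitor libraries higher. Spink8, a CA1 gene, was at 4.01 and 6.75 CPM in DMSO against 1.5 and 20.9 CPM with ONX-0914, Dsp, a desmosomal gene of granule cells, at 109.6 and 66.5 CPM in DMSO against 12.5 and 63.6 CPM with ONX-0914, and Rorb, a gene of cortical neurons, at 10.7 and 20.6 CPM in DMSO against 31 and 17.2 CPM with ONX-0914. Choroid plexus markers summed to 120.3 and 56.5 CPM in DMSO, 82.8 and 202 CPM in ONX-0914 replicates 1 and 2 and 44.5 to 195 CPM in control, so the groups overlapped. Among them, Clic6 was at 4.01 and 1.78 CPM in DMSO against 10.3 and 3.81 CPM with ONX-0914, Folr1 at 2.94 and 1.42 CPM in DMSO against 0 and 1.51 CPM with ONX-0914 and Prlr at 2.14 and 1.78 CPM in DMSO against 6.76 and 9.99 CPM with ONX-0914. Meningeal markers were low, with sums of 13.9 and 14.9 CPM in DMSO, 22.5 and 27.5 CPM in ONX-0914 replicates 1 and 2 and 14.3 to 25 CPM in control. The collagen gene Col1a2 was at 3.48 and 3.2 CPM in DMSO against 5.51 and 6.83 CPM with ONX-0914, Lum at 2.94 and 3.55 CPM in DMSO against 2.0 and 1.45 CPM with ONX-0914 and Slc6a13 at 1.6 and 1.78 CPM in DMSO against 5.26 and 3.55 CPM with ONX-0914. The mitochondrial genes mt-Nd2 and mt-Nd4 were at 1002 and 981 CPM in DMSO against 1006 and 3132 CPM with ONX-0914 and at 461 and 528 CPM in DMSO against 467 and 2143 CPM with ONX-0914, both high in replicate 2. Of 31 small-subunit ribosomal protein genes, 16 had a positive and 15 a negative Log2FC, and Rps24, Rps18 and Rps3a1 were at 59.6 and 60.4 CPM in DMSO against 57.8 and 248 CPM with ONX-0914, at 91.4 and 97.4 CPM in DMSO against 66.3 and 40.5 CPM with ONX-0914 and at 142 and 185 CPM in DMSO against 104 and 110.2 CPM with ONX-0914.

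**Figure D5:**
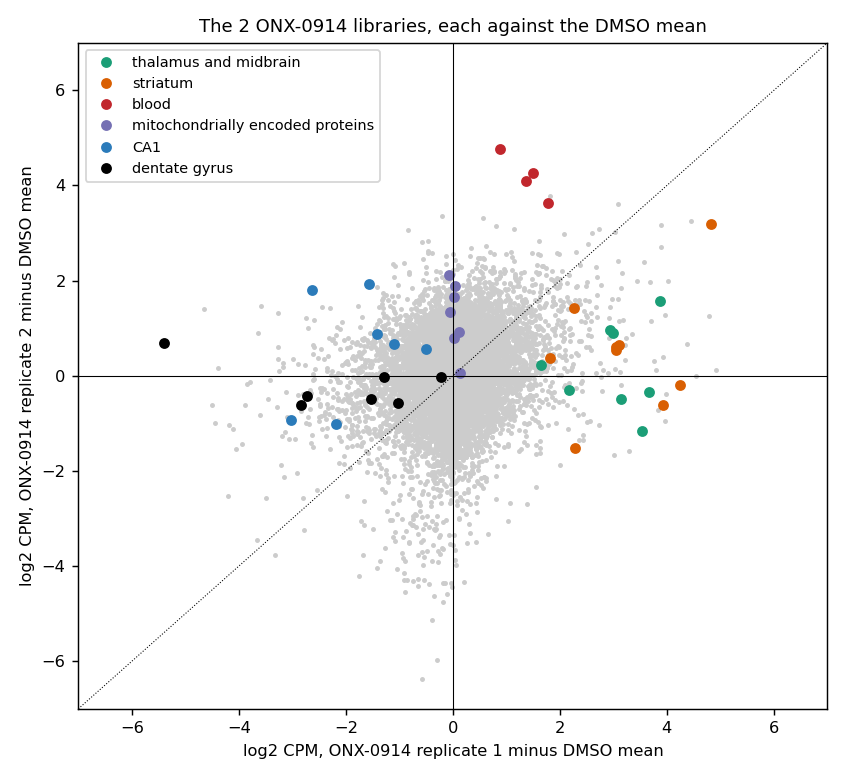
Log2 difference in CPM from the DMSO mean in ONX-0914 replicate 1 (x axis) and replicate 2 (y axis) for each tested gene, with 6 gene lists in colour and the dotted line marking equal differences. Striatal and thalamic genes spread along the x axis, and blood and mitochondrial genes along the y axis.

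Of the genes that passed the filter on low counts, the protein-coding ones that differed most between the ONX-0914 libraries show how far a group mean of these 2 libraries can stand from either value. With the highest fold excess in replicate 1 among tested genes, Nexn was at 50.8 and 1.31 CPM, Rxrg at 32 and 0.723 CPM, Hcn4 at 61.1 and 1.84 CPM, Tcf7l2 at 106 and 3.75 CPM and Slc35d3 at 23 and 0.526 CPM in replicates 1 and 2. In DMSO, these genes were between 1.07 and 11.5 CPM. Tcf7l2, a Wnt pathway transcription factor, is a thalamic marker of the list above. With the highest fold excess in replicate 2 among tested genes, the dentate gyrus marker Lct was at 0.501 and 59.99 CPM against 42.5 and 32.7 CPM in DMSO, and Klk8, a serine protease of hippocampal neurons, at 0.501 and 20.6 CPM against 18.2 and 18.5 CPM. Baiap2l1, Klhl40 and Fam160a1 had no count in replicate 1, which allows up to 0.751 CPM, and were at 25.5, 8.94 and 8.61 CPM in replicate 2. Lct and Klk8 were thus above the DMSO libraries in replicate 2 and far below them in replicate 1. None of these 10 genes was called against DMSO, with FDR values from 0.286 to 0.92 (edgeR).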

How the data were processed

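RNA-seq libraries were prepared by the authors with a directional kit and sequenced single-end. The deposited values are raw read counts per gene, 1 file per library. The submitters' processing notes name Trimmomatic 0.39, STAR 2.7.3a, featureCounts 2.00 and the GRCm39 build, and the annotation release and strand setting are not given in the sources used here, so antisense genes, pseudogenes and paralogs are uncertain and no gene coordinates of that build are given. The upstream sequences, their positions and gene neighbours are those of RefSeq on GRCm38.p6. Between 89.6% and 91.4% of the reads in the files were assigned to genes, and the other reads stayed out. Symbols and gene types came from GENCODE M21 (52135 of 55416 identifiers, 99.8% of counts).

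All 7 libraries entered 1 model in edgeR 4.0.16 under R 4.3.3 (filterByExpr over 3 groups, TMM, glmQLFit and glmQLFTest with 1 mean per group, Benjamini–Hochberg adjustment, threshold 0.05). The control libraries thus enter the filter, scaling and spread only. Standard errors come from the F statistics. Distances and per-library log2 values used a prior count of 2. The comparison, gene lists and tests were chosen with earlier results of these data known. Named genes were the DEG, the 8 protein-coding genes per direction with the smallest p and no overlap with DMSO, the genes for which the study's text gives a change, Psmb8 to Psmb10, up to 3 genes of smallest p per list, and the 5 genes per direction that differed most between the ONX-0914 libraries. Values of 4 genes picked by this rule are not reported here. Alternatives were DESeq2 1.42.0, limma 3.58.1 voom, other scaling, filters and spread estimates, other libraries in the model and the replicate number as a block. The steps were also run on simulated counts with the same spread in all groups. Such counts do not cover the wider spread between the ONX-0914 libraries.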

Additional observations from a re-analysis of the deposited data

Results flagged for a closer look

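The share of reads that overlapped no annotated gene, which no comparison used, was 6.49% in ONX-0914 replicate 1 and 6.39% in replicate 2, above the 5.48% to 5.59% of the control libraries. The DMSO libraries were at 4.75% and 5.39%.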

How the results depend on the processing

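The number of DEG was 6 in the main model, and it was within 1.5 times of this with limma voom, the earlier quasi-likelihood fit, robust estimation and without mitochondrial genes, and, in a setting chosen after seeing the data, 9 with ONX-0914 replicate 2 thinned to the depth of replicate 1. Leaving out blood, striatal and thalamic genes, also added after seeing the data, gave 6, but no DEG is among those genes, so this says nothing about other tissue in the libraries. The number of DEG was 245 with DESeq2, 11 with RLE size factors, 3 with total counts alone, 297 without a filter on low counts (26822 genes), 10 with at least 10 counts in every library, and 0 with the 4 compared libraries alone (821 genes at an unadjusted p under 0.05). With the replicate block it was 0 as well (1641 genes at an unadjusted p under 0.05), but ONX-0914 and DMSO share only replicate number 2, and the deviations of same-numbered libraries correlated at −0.10 to 0.06, so the numbers give no pairing. Leaving out single libraries gave 0 to 6313 DEG. The high values, 6313 without ONX-0914 replicate 1 and 2324 without replicate 2, assume that the remaining library varies like the other groups, and the 6 DEG were among both. The mean distance between ONX-0914 and DMSO libraries was 2.64 with 500 and 1.76 with 2000 genes per pair. With total counts alone, both ONX-0914 libraries lay below DMSO for 1728 in place of 2615 genes and above for 3742 in place of 2722.

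No DEG changed direction in any setting, and the FDR of these 6 genes ranged up to 0.738 (4 libraries alone). Genes near 0 or split between the ONX-0914 libraries did change sign: Baiap2l1 (−0.53 with voom), Bdnf (0.15 with total counts, 0.037 with no filter, 0.0073 with at least 10 counts, 0.031 with thinning), Egr3 (0.017 with total counts), Fam160a1 (−0.023 with DESeq2, −0.59 with voom), Klhl40 (−0.22 with voom), Psmb10 (0.043 with total counts), Psmb8 (−0.047 with DESeq2, −0.019 with the earlier fit, −0.20 with the replicate block, −0.088 with thinning), Rxrg (−0.61 with voom, −0.21 with the replicate block), Slc35d3 (−0.92 with voom, −0.11 with the replicate block). The causes were not tested. Leaving out single libraries, Log2FC values that changed sign spanned −6.95 to 0.95 for Fam160a1, −0.33 to 0.38 for Psmb8, −1.86 to 0.69 for Bdnf, −8.38 to 1.48 for Baiap2l1, −0.22 to 0.040 for Psmb10, −0.66 to 0.24 for Psme2, −5.10 to 0.16 for Klk8, −6.15 to 0.65 for Lct, −1.14 to 4.11 for Nexn, −2.05 to 3.38 for Rxrg, −2.26 to 3.13 for Slc35d3, −1.33 to 3.49 for Tcf7l2, −0.36 to 3.69 for Zic1, −1.95 to 0.60 for Egr3, −0.066 to 2.11 for B2m, −6.61 to 1.34 for Klhl40, −1.52 to 0.10 for Mal, −0.72 to 0.12 for Psmb9, −0.88 to 0.15 for Psme1, −0.055 to 2.04 for Rps24, −1.77 to 1.99 for Spink8, −0.081 to 2.11 for mt-Nd4 and −1.46 to 1.80 for Npas4.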
